A study of Homo sapiens with 6 samples.

Results

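The IGF2BP3 binding clusters described here lie in the proximal segment of the 3′UTR, the stretch that follows the stop codon, when the 3′UTR is divided into 5 segments of equal length. Membership was set by the mode, the peak position deposited for each cluster, which need not be a crosslinked base. The mode had to lie within the first 20% of a spliced 3′UTR on the same strand. The 3′UTR was that of the Ensembl canonical transcript of a protein-coding gene. Only 3′UTRs of 500 nt or more were used, and a cluster that included the stop codon was left out. By this rule 36678 of the 244620 clusters of the 5 IGF2BP3 libraries were members, 11825 of 90999 with RNase I 0.05/0.05 U/µL, 6900 of 43385 with RNase I 0.1/0.025, 5755 of 36795 with RNase I 0.05/0.025, 9517 of 59873 with RNase T1 1/1 and 2681 of 13568 with RNase T1 0.25/0.25. The rule used annotation and position and no read count. The clusters just inside and just outside the limit were about equally frequent, with 1105 between 18% and 20% of the 3′UTR and 1130 between 20% and 22% with RNase I 0.05/0.05, and 230 and 228 with RNase T1 0.25/0.25.

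The libraries came from IR-PAR-CLIP, in which RNA is crosslinked to protein in living cells, trimmed by a nuclease, purified with the protein and sequenced. All 6 were made from HCT116 cells of the Tet-OsTIR1-PURO genotype, a human colorectal carcinoma line, which had taken up 100 µM 4-thiouridine for 15 h before irradiation at 365 nm. IGF2BP3 was precipitated for the 5 libraries named above, whose concentrations stand for the digestion in the lysate and on the beads, and control IgG was used in a library digested with RNase I at 0.1/0.025 U/µL. Each condition had 1 library, so that no difference between conditions could be tested, and the gel extraction differed too, by electroelution at 0.05/0.05 and 1/1 U/µL and from crushed gel otherwise. Concentration and extraction cannot be told apart between the 2 RNase T1 libraries or between RNase I 0.05/0.05 and the other RNase I libraries. The polyclonal antibody also recognizes IGF2BP2 in part. Of the epithelial markers, EPCAM had clusters on its exons in all 5 IGF2BP3 libraries, CDH1 and KRT18 in 4 each and KRT8 in the 3 RNase I libraries.

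IGF2BP3 is an oncofetal RNA-binding protein with paired RNA recognition motifs and KH domains that binds mainly 3′UTRs and affects the stability, translation and localization of its targets. The 3′UTR carries sites for microRNAs and RNA-binding proteins and ends at a polyadenylation site. Many genes have several such sites, and the stretch next to the stop codon is shared by the short and the long isoforms, whereas the distal stretch is only in the long ones.

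The sequences at the modes of the strongest recurrent sites are given as examples. The 10 sites are those with proximal clusters in all 5 IGF2BP3 libraries whose lowest CPM among the libraries was highest. CPM is the read count scaled to the sum of the cluster reads of the library. For each site the 30-nt window around the mode of the cluster with most CPM is given for either enzyme, on the RNA strand with T for U and with GRCh38 coordinates, from 15 nt before to 14 nt after the mode. The capitals mark CATT, CATA and CACA, which were chosen after their enrichment over the 3′UTR sequence around the members was seen. Each ranked 1 of 256 tetramers in a different RNase I library. The ranks did not hold between libraries, and with RNase I 0.05/0.05 CATT ranked 78 and CATA 58. TTAC and TCAT, which led in the RNase T1 libraries, are not marked.
EREG, RNase I, chr4:74385079-74385108, plus strand: atatgcctggtgCACAgtgcttagaagtaa
EREG, RNase T1, chr4:74385340-74385369, plus strand: CACATTtgaaacaagctaaccctggggagt
PHLDA1, RNase I, chr12:76029658-76029687, minus strand: ataaaaaagggcggtggaggggaaaaCATT
PHLDA1, RNase T1, chr12:76030015-76030044, minus strand: cttggatcaaaagcaaaacagtctctccgc
KITLG, RNase I, chr12:88496880-88496909, minus strand: gtctcagactgcatgtacCATTtgcatggc
KITLG, RNase T1, chr12:88496880-88496909, minus strand: gtctcagactgcatgtacCATTtgcatggc
SCD, RNase I, chr10:100361503-100361532, plus strand: taaggatgagggaagcgaagcaagaggaac
SCD, RNase T1, chr10:100361207-100361236, plus strand: cctcccaggcaagcagctggtcagtctttg
EIF4E, RNase I, chr4:98880777-98880806, minus strand: aattacagtaCACAtccccagaatcCATAa
EIF4E, RNase T1, chr4:98880727-98880756, minus strand: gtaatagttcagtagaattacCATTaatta
BZW1, RNase I, chr2:200822593-200822622, plus strand: agagtctcaaaaggcaatgatttgtgagat
BZW1, RNase T1, chr2:200823021-200823050, plus strand: CACAgaatacacttagattgataggaaaga
DCBLD2, RNase I, chr3:98799217-98799246, minus strand: gactgaggtacaggaaactactaatcttgc
DCBLD2, RNase T1, chr3:98798810-98798839, minus strand: catcttaagatctgtagctgggattttctg
CSNK2A1, RNase I, chr20:483471-483500, minus strand: aggaagaaaggaaggaaggaaagaaggaag
CSNK2A1, RNase T1, chr20:483329-483358, minus strand: ttacatcaagatgttgaaaatctacccaaa
VAPA, RNase I, chr18:9954483-9954512, plus strand: ttgttctttctttgtggttttaataagagt
VAPA, RNase T1, chr18:9954365-9954394, plus strand: gttagaaaaCACAataaaaacaaactgttc
AKAP12, RNase I, chr6:151355764-151355793, plus strand: gacaagtagtagaagaaaatgaatgctgct
AKAP12, RNase T1, chr6:151355811-151355840, plus strand: gtatttcagaactttgagaattggagagca

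Of the 10 RNase I windows 4 held at least 1 of the 3 marked tetramers and 2 held CATT, and of the 10 RNase T1 windows 5 and 3 did. The windows of the same site coincided only in KITLG, where both enzymes gave a mode at 325 nt from the stop codon. Some of the other windows show purine-rich stretches, as in the RNase I windows of CSNK2A1 and PHLDA1. In all members, between 32.9% and 36.2% of the RNase I windows and 43.2% and 45.9% of the RNase T1 windows held at least 1 of the 3 tetramers, and 29.8% of the 30-nt windows tiled over the proximal segments did. The mode was at an edge of the cluster in 54.8% to 62.6% of the members, so that many windows lie partly outside the cluster. It was a T, the base at which conversions are read, in 31.0% to 33.5% of the RNase I members. With RNase T1 it was a T in 27.6% and 28.8%. Most modes are thus not converted bases themselves, and the RNase I window of CSNK2A1 holds no T. The mode was a G in 33.3% and 34.8% of the RNase T1 members and in 13.6% to 14.6% of the RNase I members. RNase T1 cuts after G.

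EREG, which encodes the EGFR ligand epiregulin, had the highest lowest-library value. Its site at chr4:74384957-74385621 held 715 CPM with RNase I 0.05/0.05, 622 with 0.1/0.025, 669 with 0.05/0.025, 644 with RNase T1 1/1 and 871 with 0.25/0.25. The site of PHLDA1, a pleckstrin homology-like domain protein, at chr12:76029528-76030097 held 818, 774, 933, 504 and 707 CPM in the same order of libraries. The site of KITLG, the ligand of the receptor tyrosine kinase KIT, at chr12:88496491-88497183 held 808, 871, 912, 461 and 1233 CPM. In all 3 of these sites the RNase T1 1/1 library was within or below the range of the RNase I libraries. SCD encodes the desaturase that makes monounsaturated fatty acids, and its site at chr10:100360963-100361754 held 458, 467, 470, 512 and 751 CPM. EIF4E encodes the protein that binds the mRNA cap, and its site at chr4:98880414-98880989 held 451, 551, 516, 450 and 1222 CPM. In both sites the RNase T1 0.25/0.25 library, which had the fewest cluster reads, gave the highest value, from 137 reads in SCD and 223 reads in EIF4E.

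BZW1 encodes a regulator of translation initiation, and its site at chr2:200822555-200823483 held 910, 1498, 1507, 448 and 1458 CPM. DCBLD2 encodes a transmembrane receptor-like protein, and its site at chr3:98798299-98799328 held 923, 448, 793, 736 and 1343 CPM. The catalytic subunit of casein kinase 2 is encoded by CSNK2A1, whose site at chr20:482910-483895 held 412, 500, 431, 532 and 433 CPM, the narrowest range of the 10. VAPA encodes a protein of the endoplasmic reticulum that tethers it to other membranes, and its site at chr18:9954216-9954823 held 410, 521, 592, 379 and 789 CPM. AKAP12 encodes a scaffold that anchors protein kinase A, and its site at chr6:151355779-151356835 held 1460, 367, 662, 1080 and 1233 CPM, with no separation of the enzymes. No order of the libraries held in all 10 sites.

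The conversion events per read of these 10 sites were 0.449 or more in each library except for BZW1 with RNase T1, where they were 0.424 and 0.440. In KITLG they were highest, with 0.771, 0.883 and 0.745 with RNase I and 0.645 and 0.947 with RNase T1. The sites were wide, with 570 nt in PHLDA1 and 1057 nt in AKAP12 at the ends of the range. Overlapping clusters of the libraries were merged, but in AKAP12 a single cluster of the RNase I 0.05/0.05 library spanned all 1057 nt. The proximal segment of AKAP12 has 569 nt. In DCBLD2 the same library had a cluster of 1023 nt, and the segment has 686 nt. Clusters were proximal by their modes, so that reads from beyond the segment count in the CPM of such sites. The 10 sites were wider than most of the 1004 proximal sites with a cluster in all 5 libraries, which had a median width of 225 nt (quartiles 153 and 331 nt).

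**Figure D1:**
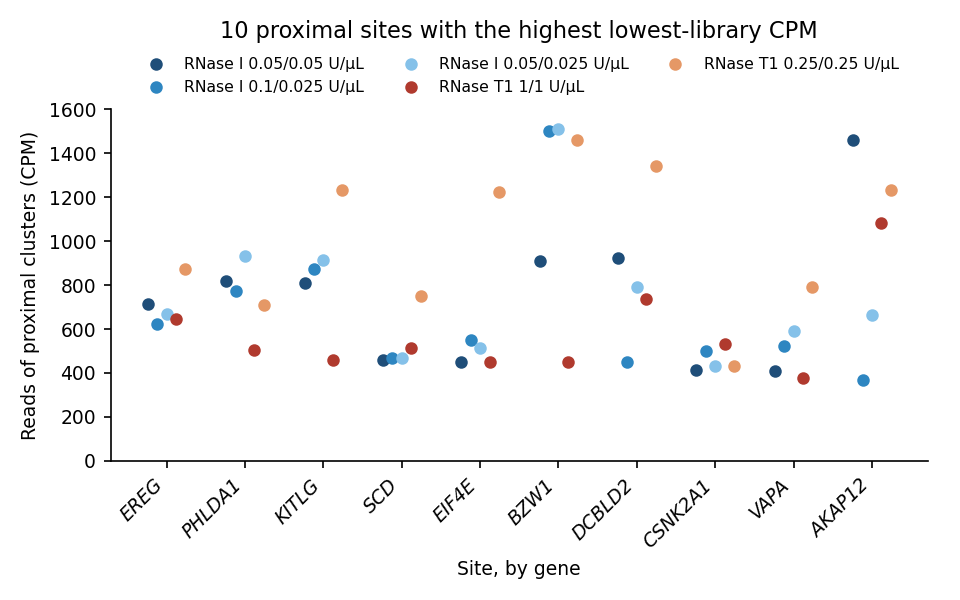
Reads of proximal clusters in CPM (linear axis from 0) at the 10 sites with clusters in all 5 IGF2BP3 libraries and the highest lowest-library CPM, with 1 point per library and no error bars, as each condition had 1 library. The lowest point is AKAP12 with RNase I 0.1/0.025 at 367 CPM, and the highest is BZW1 with RNase I 0.05/0.025 at 1507 CPM.

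The first comparison asked whether clusters are spread evenly along the 3′UTR. The proximal segment held the most clusters in each of the 5 libraries. Of the clusters in 3′UTRs that met the rule, 24.7% (95% Wilson interval 24.3% to 25.1%) lay in the proximal segment with RNase I 0.05/0.05, 26.7% (26.2% to 27.3%) with 0.1/0.025, 27.1% (26.5% to 27.7%) with 0.05/0.025, 25.0% (24.5% to 25.4%) with RNase T1 1/1 and 28.9% (28.0% to 29.8%) with 0.25/0.25. In the distal segment the percentages were 16.1%, 15.2%, 15.3%, 15.2% and 14.7% in the same order. From the proximal to the distal segment the percentage fell at each step in each of the 5 libraries. The intervals cover counting error only, and the libraries share many sites.

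The proximal segment exceeded the distal segment by a mean of 11.2 percentage points and the average of the middle 3 segments by a mean of 7.06 points, in 5 of 5 libraries each. The exact two-sided sign-flip test over the 5 libraries gave p = 0.063 for both, the smallest p it allows, and 0.141 after Benjamini-Hochberg adjustment over the 9 contrasts tested, so that neither passed the threshold of 0.05. By reads, the proximal segment held 26.0%, 27.9%, 27.5%, 27.4% and 30.4% and the distal segment 14.7%, 14.02%, 14.04%, 13.7% and 13.8% of the reads in eligible 3′UTR clusters, a mean difference of 13.8 points (5 of 5 libraries, exact p = 0.063, adjusted p = 0.141). In between 63.2% and 66.3% of the genes with reads in either end segment, the proximal one had more.

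**Figure D2:**
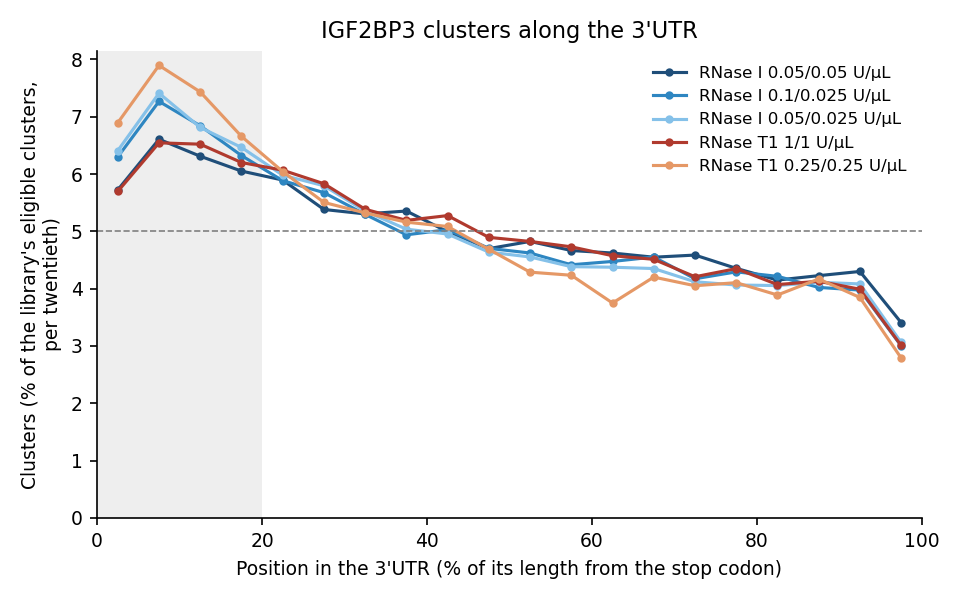
Percentage of each library's eligible 3′UTR clusters (y axis, from 0) in each twentieth of the 3′UTR length from the stop codon (x axis), with 1 line per library. The shaded area is the proximal segment and the dashed line is an even spread. Each line is highest in the second twentieth, between 6.54% and 7.90%, and lowest in the last, between 2.79% and 3.41%.

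Within the proximal segment, the members lay at a median distance of 301, 280, 275, 305 and 264 nt from the stop codon, and between 15.3% and 16.8% of them were within 100 nt. In 3′UTRs of 2000 nt or more, where distances could be compared among the same transcripts, the first 50 nt held 2.39, 1.73, 1.54, 1.88 and 1.14 clusters per kb. Between 50 and 400 nt the density was higher in each library, with 3.60, 2.81, 2.60, 3.06 and 1.95 clusters per kb, and between 1000 and 2000 nt it was 2.74, 1.84, 1.58, 2.34 and 1.03. The ratio of these 2 densities was 1.31, 1.53, 1.64, 1.31 and 1.90. Clusters that included the stop codon were left out, however far they reached into the 3′UTR. Those with their mode in an eligible 3′UTR numbered 610, 263, 231, 108 and 30 in the 5 libraries. Those with their mode at or before the stop codon were left out too and are not in these numbers.

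**Figure D3:**
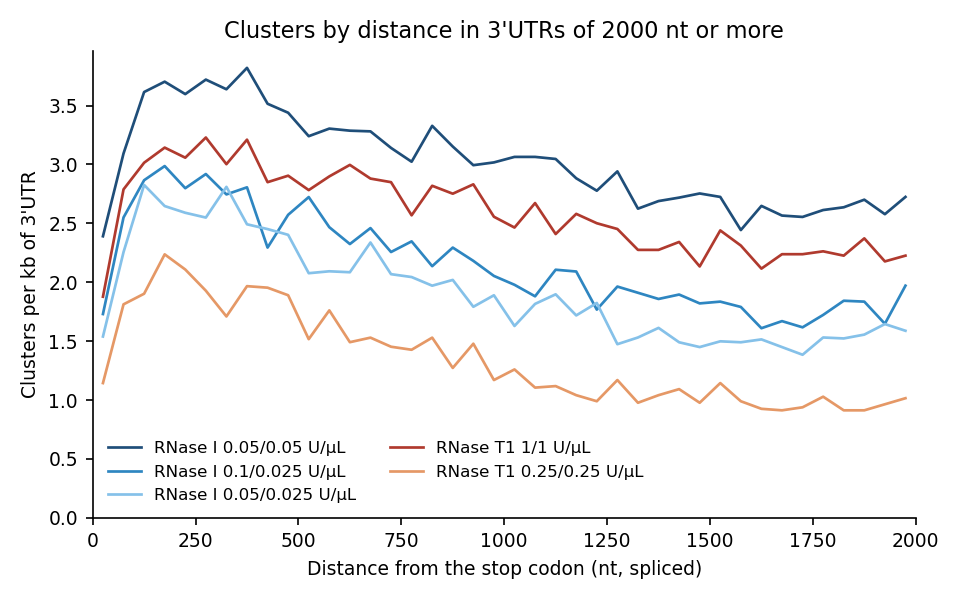
Clusters per kb of 3′UTR (y axis, from 0) in steps of 50 nt by distance from the stop codon (x axis, nt) in 3′UTRs of 2000 nt or more with a cluster in the library, with 1 line per library. The peak lies between 100 and 400 nt in each library.

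The proximal excess grew with the length of the 3′UTR. In 3′UTRs of 500 to under 1000 nt, the proximal segment held 18.2%, 20.1%, 18.4%, 18.1% and 17.2% of the clusters and the distal segment 17.0%, 15.3%, 16.6%, 16.9% and 16.6%. In 3′UTRs of 4000 nt or more, the proximal segment held 28.7%, 31.9%, 33.6%, 29.3% and 38.5%, and the distal segment 14.7%, 14.4%, 13.98%, 14.2% and 12.9%. The ratio of the proximal to the distal percentage rose in each library at each of the 4 length classes, from between 1.04 and 1.32 to between 1.95 and 2.98.

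The excess was also split by AATAAA, the canonical polyadenylation hexamer, searched on the RNA strand as these letters only, a split added after the data were seen. Of the 3′UTRs with clusters, 4412 held the hexamer in their first 4 segments and 2573 did not. In those without it, the proximal segment held 19.1%, 20.1%, 19.1%, 19.1% and 20.3% of the clusters and the distal segment 19.5%, 18.2%, 18.4%, 18.8% and 19.6%, so that the difference lay between -0.47 and 1.94 percentage points. In those with it, the difference was 12.2, 15.2, 16.2, 12.7 and 18.9 points. The 3′UTRs with the hexamer were also longer, with a median of 2697 nt against 1337 nt.

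Within classes of length, the difference was larger with the hexamer than without it in 20 of 20 combinations of 4 length classes and 5 libraries. With it the difference was between 7.60 and 14.9 points at 500 to under 1000 nt and between 16.0 and 26.7 points at 4000 nt or more. Without it, the difference was between -8.02 and -0.14 points at 500 to under 1000 nt and between -1.97 and 7.38 points at 4000 nt or more, where 144 3′UTRs were left. In 3′UTRs with the hexamer anywhere, 48.7%, 51.5%, 52.9%, 46.1% and 52.6% of the clusters lay before its first occurrence, while the stretch before it made up on average over these clusters 43.4%, 43.9%, 44.6%, 40.3% and 43.0% of the 3′UTR. Over the whole 3′UTR this comparison includes the fall of clusters from the proximal to the distal segment. Within the proximal segment the values were closer. Of the members, 78.2%, 80.2%, 80.6%, 76.6% and 80.0% lay before the first hexamer. The stretch before it made up on average 77.1%, 78.0%, 78.3%, 74.6% and 76.1% of the segment. Which polyadenylation sites HCT116 cells use was not measured in these data, and the part of shorter isoforms in the proximal excess was not tested.

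**Figure D4:**
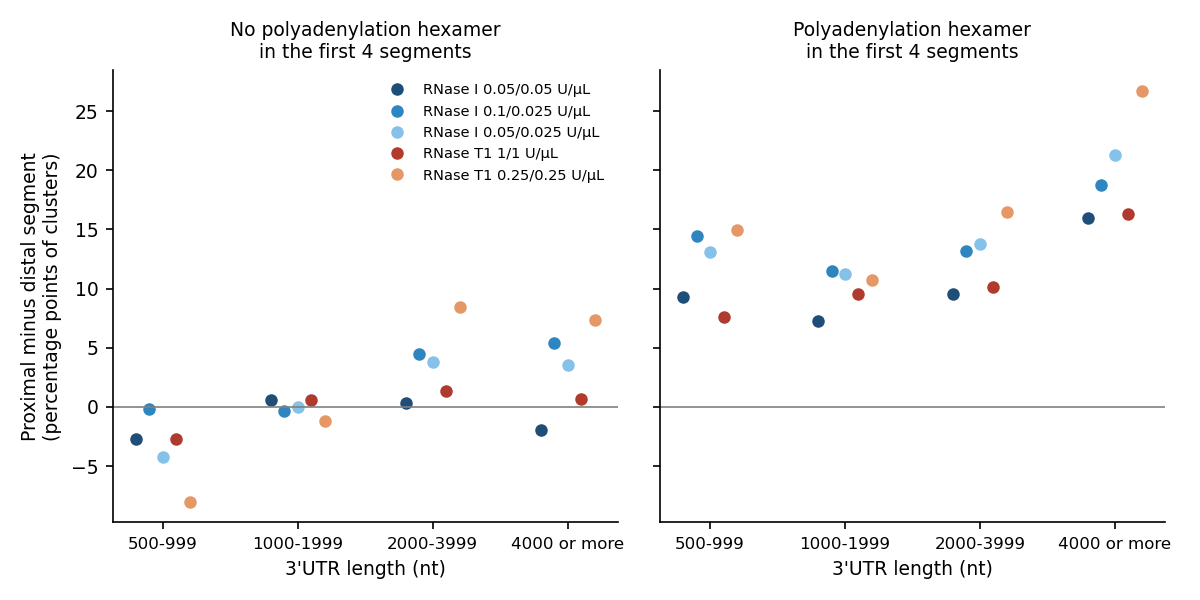
Percentage of clusters in the proximal segment minus that in the distal segment (y axis, percentage points) by 3′UTR length class (x axis, nt), with 1 point per library. The left panel holds 3′UTRs without and the right panel 3′UTRs with the polyadenylation hexamer in the first 4 segments, and each point on the right is above 0 and above the point of the same library and class on the left.

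The length and the conversion of the clusters were compared between the proximal and the other segments, in a design in which no difference could pass 0.05. Members had a median length of 58, 56, 56, 34 and 38 nt, against 58, 55, 55, 34 and 38 nt in the other segments (mean difference 0.40 nt, exact sign-flip p = 0.50, adjusted p = 0.643). Their median was 0.625, 0.655, 0.608, 0.541 and 0.571 conversion events per read, against 0.625, 0.667, 0.600, 0.538 and 0.583 (mean difference -0.0026, exact sign-flip p = 0.50, adjusted p = 0.643). The median member held between 8 and 12 reads, and the largest 5227 reads, in KITLG with RNase I 0.05/0.05. That cluster had 1972 nt, while the proximal segment of KITLG has 885 nt. In this library 68.8% of the 3′UTR cluster reads of KITLG were proximal, against 14.1% to 18.1% in the others. The criteria for a target, more than 10 CPM and more than 0.5 conversion events per read, were met by 20.97%, 41.8%, 48.6%, 24.3% and 58.3% of the members, where 17.6%, 39.1%, 45.7%, 21.3% and 59.3% of all clusters met them. Against the other segments the mean difference was 1.34 percentage points, positive in 4 of 5 libraries (exact sign-flip p = 0.125, adjusted p = 0.225). RNase T1 0.25/0.25, in which 10 CPM is a lower read count than in the other libraries, was the exception. In that library 10 CPM lay below the lower quartile of 6 reads, so that conversion alone decided for most of its members. As the cluster reads ran from 182448 in that library to 2362467 with RNase I 0.05/0.05, the percentages cannot be compared between libraries.

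Sequence was compared in windows of 30 nt around the mode. CATT, a motif known for IGF2BP proteins, stood in 15.2%, 18.2%, 17.5%, 23.1% and 25.6% of the members' windows and in 14.5% of windows tiled over the proximal segments of the 3′UTRs with clusters. In the other segments it stood in 15.9%, 17.5%, 17.8%, 24.4% and 24.8% of the windows. The mean difference was -0.17 points, with the proximal segment higher in 2 of 5 libraries (exact sign-flip p = 0.75, adjusted p = 0.812). The ratio of members to tiled windows was 1.05, 1.26 and 1.21 with RNase I and 1.60 and 1.77 with RNase T1. The bases of the members' windows were G in 15.4% and 16.0% with RNase T1 and in 19.5% to 20.3% with RNase I. In the proximal segments 21.5% of the bases were G. The part of base composition in the ratios of CATT and of other tetramers without G was not tested.

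GGAC, a core of the motif in which adenosine is methylated to m6A, was more frequent in the members than in the other segments in each library, with 7.58%, 6.81%, 6.64%, 5.79% and 6.01% against 6.38%, 5.79%, 6.03%, 4.95% and 4.57% (mean difference 1.02 points, exact sign-flip p = 0.063, adjusted p = 0.141). The tiled windows, which use no cluster, differed in the same direction, with 7.39% in the proximal segment and 6.03%, 5.94%, 6.02% and 5.54% in the following segments. With the tiled percentage of the same segments subtracted, the members were lower by a mean of 0.46 points in 5 of 5 libraries (exact sign-flip p = 0.063), an alternative added after the data were seen. Among the members GGAC was most frequent within 100 nt of the stop codon, with 11.1%, 10.3%, 8.32%, 9.53% and 7.66%, and less frequent beyond 1000 nt, with 4.20%, 3.00%, 3.46%, 3.91% and 5.26%. CATT ran the other way, with 13.9%, 15.2%, 14.9%, 19.1% and 22.7% within 100 nt and 18.3%, 21.9%, 18.2%, 28.2% and 30.8% beyond 1000 nt.

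Of the 256 tetramers, the one with the largest log2 ratio of members to tiled windows was a different one in each library. CACA led with RNase I 0.05/0.05 (log2 ratio 0.29), CATT with 0.1/0.025 (0.33) and CATA with 0.05/0.025 (0.35). TTAC led with RNase T1 1/1 (0.79) and TCAT with 0.25/0.25 (0.93). The pyrimidine-rich TTTT stood in 32.5% and 33.2% of the RNase T1 windows and in 24.0% to 26.0% of the RNase I windows, where 24.5% of the tiled windows held it. AATAAA stood in 1.99%, 2.00%, 1.74%, 2.23% and 2.09% of the members' windows and in 1.80% of the tiled ones. The windows were read from the genome, and between 1.01% and 1.73% of them extended past the exon of the 3′UTR.

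Next, it was asked whether proximal clusters recur between libraries. When overlapping clusters of the 5 libraries were merged within a segment, 1004 of 14110 proximal sites (7.12%, 95% Wilson interval 6.70% to 7.55%) had a cluster in all 5 libraries. Over all segments 5.95% of the sites did, and from the second to the last segment the percentages were 5.86%, 5.47%, 5.14% and 5.86%. The intervals cover counting error only, as the sites come from the same 5 libraries and are not replicates. The difference between segments in these percentages was not tested. Sites in 1 library only made up 49.6% of the proximal sites and between 51.8% and 54.1% in the other segments. The 1004 sites lay in 839 genes at a median distance of 291 nt from the stop codon, and 808 of them had more than 10 CPM in each library. Expression of the genes was not measured, and its part in these percentages was not tested.

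**Figure D5:**
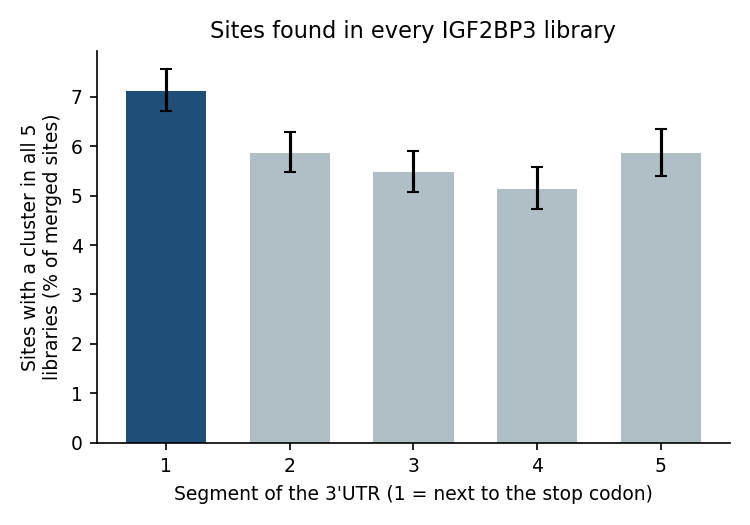
Percentage of merged sites with a cluster in all 5 IGF2BP3 libraries (y axis, from 0) by segment of the 3′UTR (x axis), with 95% Wilson intervals as error bars that cover counting error only. The proximal segment, in dark blue, stands at 7.12%, and the others lie between 5.14% and 5.86%.

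By library, a member overlapped a cluster of the other enzyme in 44.7%, 61.0% and 63.8% with RNase I 0.05/0.05, 0.1/0.025 and 0.05/0.025 and in 83.1% and 99.0% with RNase T1 1/1 and 0.25/0.25. In the other segments the percentages were 45.1%, 62.5%, 64.6%, 78.6% and 98.1%. Against the other segments pooled, the proximal segment was thus lower by 0.46, 1.51 and 0.83 points in the 3 RNase I libraries and higher by 4.49 and 0.89 points in the 2 RNase T1 libraries, and over the 5 the mean difference was 0.52 points (exact sign-flip p = 0.812, adjusted p = 0.812). In the RNase I libraries the distal segment was lower still, at 42.7%, 59.6% and 61.4%, and the middle 3 segments were higher than the proximal one. With RNase T1 1/1 the percentage fell at nearly each step from 83.1% in the proximal to 75.8% in the distal segment. Of the RNase T1 0.25/0.25 members 97.8% overlapped a cluster of the RNase I 0.05/0.05 library, while 13.5% of the RNase I 0.05/0.05 members overlapped one of the RNase T1 0.25/0.25 library.

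By gene, 5227 of the 13342 eligible 3′UTRs had a member in any IGF2BP3 library and 1027, or 7.70%, in all 5. These 1027 had a median length of 3178 nt, against 1765 nt for the eligible ones. The 10 genes with the most proximal reads held on average 7.28% of them. They were PTP4A1, ENSG00000285976, BZW1, KITLG, ARPP19, PAICS, AKAP12, CYB5B, DCBLD2 and EREG, 5 of which are among the sites above.

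In ARPP19, whose product inhibits the phosphatase PP2A at entry into mitosis, the members held 825, 1439, 242, 1098 and 2028 CPM. In PAICS, an enzyme of purine synthesis, they held 107, 2368, 2196, 455 and 471 CPM. In CYB5B, the cytochrome b5 of the outer mitochondrial membrane, they held 49.5, 2936, 65.6, 1346 and 49.3 CPM. PTP4A1, a protein tyrosine phosphatase, held 0, 2904, 0, 1346 and 5585 CPM. These ranges between libraries were wider than in the 10 sites and followed the position of a single large cluster. In CYB5B the largest cluster that reached into the proximal segment included the stop codon, and was left out by the rule, in the 3 libraries with low values, and it held 4097, 2043 and 900 reads. In PTP4A1 the largest such cluster included the stop codon of PTP4A1 in both libraries at 0, with 3877 and 1665 reads. The cluster of 1665 reads, with RNase I 0.05/0.025, was not lost but counted as a member of ENSG00000285976. Its mode lay there at 756 nt of a segment of 856 nt. In PAICS, where the segment is 1008 nt long, the mode of the largest cluster lay at 1176, 1023 and 1077 nt in the 3 libraries with low values and at 709 and 591 nt in the others. When all clusters that reach into the segment were counted, CYB5B held between 1346 and 4982 CPM, PAICS between 1399 and 4456 CPM and PTP4A1 between 1356 and 5903 CPM. The annotation ENSG00000285976 overlaps the 3′UTR of PTP4A1, and reads of the 2 genes cannot be told apart there. Its members held 80.8, 1660, 2600, 1787 and 3617 CPM.

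The share of a gene's 3′UTR cluster reads that was proximal varied widely between genes. Among the 586 genes with at least 50 such reads in each library, the mean share had a median of 21.9% (quartiles 11.1% and 40.6%), and it was above 20% in 323. In RAP1B, a small GTPase of integrin signaling with a 3′UTR of 12652 nt, each read was proximal in each library, with 374, 191, 120, 163 and 70 reads. In GNAI1, a G protein subunit that inhibits adenylyl cyclase, the shares were 99.0% with RNase I 0.05/0.05 and 100.0% in the other 4 libraries. TGIF1, a repressor of TGF-β signaling, had 98.2% with RNase I 0.05/0.05 and 100.0% elsewhere, and HSPA5, the chaperone BiP, had 97.9% with RNase T1 1/1 and 100.0% elsewhere. ENSG00000285976 was also at 100.0%, as a cluster in both overlapping 3′UTRs was given to the one in which its relative position was lower.

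At the other end, 10 of the 586 genes had no proximal read in any library. The 5 of them with the longest 3′UTRs were CDC42SE2, BTG2, TRIM32, SPTLC1 and TNFRSF10A, with 3′UTRs of 3581, 2164, 1595, 1318 and 1242 nt. BTG2, an antiproliferative protein that stimulates mRNA deadenylation, had 837, 449, 324, 358 and 80 reads in the rest of its 3′UTR, and CDC42SE2, an effector of the GTPase CDC42, had 619, 359, 197, 433 and 88. Sequence and length differ between these 3′UTRs, and with members chosen by their values no test was made.

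The lists of known targets and pathways were read against the 7.70% of eligible 3′UTRs with a member in all 5 libraries, or the 14.7% of those 3′UTRs that had any eligible cluster. Of 17 genes reported as IGF2BP targets, 7 had a member in all 5 libraries (41.2% of the eligible ones, 50.0% of those with a cluster), and 4, ABCB1, IGF2, LIN28B and ULBP2, had none. The median proximal share of reads in the list was 15.9%, against 16.8% in all 3′UTRs with a cluster. CDK6, a kinase that drives entry into S phase, had 242, 227, 255, 242 and 214 CPM in members and a proximal share between 23.4% and 34.5%. CCND1, the cyclin D1 that activates CDK6, had 61.8, 83.4, 88.0, 186 and 592 CPM, with shares of 2.28% to 3.45% with RNase I and of 8.04% and 15.0% with RNase T1. HMGA2, a chromatin protein of fetal tissues, had 80.8, 93.3, 86.5, 258 and 225 CPM. In both genes the 2 RNase T1 values were above the 3 RNase I values, which held for 11 of the 27 list genes with a member in all 5 libraries and for 33.4% of the 1027 such genes in all. Over the 1027 genes, both RNase T1 values were below the 3 RNase I values in 7.59%. CPM is scaled to all cluster reads, of which members held 14.7%, 17.0% and 15.8% with RNase I and 18.9% and 20.1% with RNase T1. The part of this in the order of the values was not tested.

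Of the same list, EIF4EBP2, which sequesters EIF4E, had 129, 153, 139, 162 and 87.7 CPM, and the adhesion receptor CD44 had 138, 210, 152, 241 and 137 CPM. The proximal segment held between 37.3% and 53.3% of the reads in EIF4EBP2 and between 10.5% and 22.5% in CD44. Of the 5 eligible genes in a list picked as examples of coverage, HMGA2 alone had a member in all 5 libraries (20.0%).

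Regulators that act on 3′UTRs themselves had members in all 5 libraries in 10 of 23 eligible genes (43.5%), with a median proximal share of 34.2%. HNRNPU, a nuclear RNA-binding protein, had 66.0, 151, 233, 459 and 444 CPM, and HNRNPA2B1, a splicing and transport factor, had 56.7, 97.1, 76.0, 132 and 186 CPM. The RNase T1 values were above the RNase I values in both, and the proximal segment held between 57.6% and 100.0% of the reads in HNRNPU and between 89.0% and 100.0% in HNRNPA2B1. ELAVL1, or HuR, which binds AU-rich elements, had 146, 285, 294, 83.0 and 312 CPM. AGO2, CNOT6 and CNOT7, TNRC6C and the m6A readers YTHDF2 and YTHDF3 were also among the 10. In YTHDF3 the RNase I 0.05/0.05 library held 2.54 CPM and the others between 110 and 208 CPM.

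Colorectal cancer signaling genes had members in all 5 libraries in 7 of 14 (50.0%), with a median proximal share of 39.3%, and the 3′UTRs of the 12 with a cluster had a median length of 4087 nt, against 2081 nt in all 3′UTRs with a cluster. SMAD2, which carries TGF-β signals to the nucleus, had 362, 299, 294, 646 and 301 CPM, and its annotated 3′UTR of 32870 nt held between 92.8% and 100.0% of its reads in the proximal segment. SMAD4, its partner, had 78.3, 97.1, 107, 118 and 121 CPM and shares between 72.3% and 100.0%. The small GTPase NRAS had 209, 266, 355, 184 and 356 CPM. TCF7L2, the transcription factor of Wnt signaling, had 44.4, 23.6, 19.4, 175 and 153 CPM, and EGFR had 77.9, 13.7, 28.3, 44.9 and 32.9 CPM.

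Of the m6A writers and erasers, 2 of 8 eligible genes had members in all 5 libraries (25.0%), the demethylase FTO and the ubiquitin ligase CBLL1 of the writer complex. Of the cell cycle genes 3 of 18 did (16.7%), which were CDK6, CCND1 and CCNA2, and of the cytoskeleton and adhesion genes 2 of 12 (16.7%), CD44 and the membrane linker MSN. FTO had 77.0, 62.2, 73.1, 97.6 and 71.3 CPM, with the proximal segment, 2005 nt of a 3′UTR of 10026 nt, holding between 52.6% and 100.0% of the reads. CCNA2, the cyclin of S phase, was at 2.96, 27.4, 17.9, 6.05 and 54.8 CPM. The lists were not matched to the other genes for expression or 3′UTR length, whose part in these percentages was not tested.

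In the control, 5 of the 25 IgG clusters were in proximal segments, of 7 in eligible 3′UTRs. They held 4, 5, 5, 6 and 8 reads, with 2 in CYB5B and 1 each in PSMD12, a subunit of the proteasome, CDKN1A, the cell cycle inhibitor p21, and PTP4A1. IGF2BP3 clusters overlapped all 5, and in the RNase I 0.1/0.025 library, digested in the same way, these clusters held between 310 and 2333 reads. With 7 clusters, which share genes, no comparison of the position with that of IGF2BP3 clusters was made.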

How the data were processed

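IR-PAR-CLIP clusters of 5 IGF2BP3 libraries and 1 IgG library from HCT116 cells were analysed. Per the study's methods and the processing notes, the authors demultiplexed with bcl2fastq 2.20.0.422, used UMI-tools 1.1.1 for identifiers and duplicates and Trimmomatic 0.30 for a read length between 18 and 45 nt, mapped to GRCh38 with Bowtie 0.12.7 at up to 3 mismatches and ran PARalyzer on each library. The deposited counts of reads and of conversion events per cluster were not normalized. The deposited mode score, a fraction of the crosslink signal, was not used. Cluster reads summed to between 182448 and 2362467 per IGF2BP3 library and to 324 with IgG, and all cluster sequences were identical to GRCh38.

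Members were found from GENCODE release 44 as described in the report, and a cluster in several canonical 3′UTRs (0.70% to 0.97% of the members) was given to the lowest relative position. CPM is relative to the summed cluster reads of the library. Libraries were the unit of the exact two-sided sign-flip test, whose smallest p with 5 libraries is 0.063, with Benjamini-Hochberg adjustment over 9 contrasts. Clusters are not replicates. With 1 sample per condition, p-values measure the spread between differently digested libraries. The script was tested on simulated data. The tools were pysam 0.24.0, pandas 2.3.3, numpy 2.4.6, scipy 1.17.1 and matplotlib 3.10.9 in Python 3.11.15. Alternatives changed the position, filters, 3′UTRs, bins, background and overlap.

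Genes were named by a rule: the 10 with most proximal CPM, the 10 sites with the highest lowest-library CPM, the 5 genes at each end of the proximal read share and the list members with a proximal cluster in all 5 libraries, some of which are not reported here. The members, lists and rules were chosen with earlier results of these data known.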

Additional observations from a re-analysis of the deposited data

Results flagged for a closer look

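The percentage of proximal clusters that overlapped a cluster of the other enzyme, minus that of the other segments pooled, had opposite signs with the 2 enzymes. It was -0.46 percentage points with RNase I 0.05/0.05, -1.51 with 0.1/0.025 and -0.83 with 0.05/0.025, and 4.49 with RNase T1 1/1 and 0.89 with 0.25/0.25 U/µL. The difference between the enzymes was not tested. The libraries of the other enzyme differ in number and depth between the 2 sets, and the part of depth in the signs was not tested.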

How the results depend on the processing

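The 9 contrasts were recomputed with the midpoint as the position, stricter clusters, other 3′UTRs, 10 segments in place of 5, other backgrounds and overlaps and without each library. No paired analysis was possible because each condition had 1 library, so that conditions share no replicates. The sign-flip test sets segments of the same library against each other. No contrast could pass 0.05 under any alternative, as the smallest p of the exact sign-flip test is 0.063 with 5 libraries and 0.125 with 4. Under 11 alternatives the proximal minus distal difference in clusters lay between 0.65 and 16.3 percentage points and under 13 that in reads between 1.15 and 19.3 points, and both were lowest in 3′UTRs with no AATAAA in the first 4 segments, where the proximal minus middle difference turned to -0.99 points. Without 1 library the cluster difference lay between 10.4 and 11.8, the middle difference between 6.31 and 7.59, the read difference between 13.1 and 14.4, conversion events per read between -0.0053 and -0.00033, length between 0.25 and 0.50 nt, GGAC between 0.92 and 1.12 and the target criteria between 0.96 and 1.94 points. The difference of 1.34 points in the target criteria was 0.13 at over 0.75 and 1.87 at over 0.25 conversion events per read (5 of 5 libraries) and 0.54 with 1 cluster per gene.

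Several small differences changed sign. CATT was 0.098 points with the cluster sequence and 0.11 with tiled windows subtracted, and between -0.40 and 0.13 without 1 library, positive without RNase T1 1/1. Recurrence was -0.00067 points in clusters over 10 CPM, -0.44 with 10 segments and between -0.47 and 1.02 without 1 library, negative without RNase T1 1/1. Conversion events per read were 0.00083 with stop codon clusters kept and 0.00060 with 10 segments, length was -0.40 nt with 1 cluster per gene, and GGAC was -0.46 points with tiled windows subtracted. The cause of these changes was not tested. The AATAAA sets, the tiled subtraction, the nucleotides under clusters and the spread reads were chosen after seeing the data. With 324 reads, the IgG library limits what can be said of the background by position, and with 1 library per condition the spread between libraries includes digestion, gel extraction and depth.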
